A study of Mus musculus with 12 samples.

Results

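The genes described here code for potassium channels and their subunits, in RNA from cells isolated as astrocytes from adult mouse brain 24 h after a stroke. They were chosen by their counts in these libraries: protein-coding genes whose symbol starts with Kcn and that had at least 10 counts in at least 3 of the 12 libraries, with Kcnj10, Kcnj8 and Kcne2 left out by name. This gave 69 members of 94 such genes, from tables of 48709 genes. Their presence in the libraries is no finding. None of the 69 passed it through a single group, and all 69 passed the low-count filter of the tests. Of the 69, 49 had 10 counts or more in every library. Just inside the threshold were Kcna4 and Kcnj11, with 4 such libraries, and just outside it Kcnh6, Kcnj6 and Kcnj15, with 2. The remaining 19 genes under the threshold had at most 1 such library.

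The mice were C57BL/6, 90 to 120 days old, and all carried floxed alleles and 1 copy of Gfap-CreERT2, whose Cre enzyme is driven by the Gfap promoter and needs tamoxifen to act. Mice labelled KO (295, 298 and 300) were given tamoxifen and mice labelled WT (296, 297 and 474) corn oil, so drug and deletion cannot be told apart. The middle cerebral artery of 1 hemisphere was blocked for a time and reopened (tMCAO). Cells bearing ACSA-2, an astrocyte surface antigen, were then isolated from the blocked (ipsilateral) and the opposite (contralateral) hemisphere. The 4 groups, KO ipsilateral, KO contralateral, WT ipsilateral and WT contralateral, have 3 libraries each, and values below follow the mouse order just given. Levels between genes are compared in TPM (transcript abundance scaled for gene length and depth), and levels between libraries in CPM (counts scaled for depth only).

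Library totals were 11187723 to 15780600 counts. The summed CPM of 12 astrocyte markers was 19230 to 29945 in KO ipsilateral, 25480 to 30280 in KO contralateral, 10903 to 12838 in WT ipsilateral and 18847 to 24505 in WT contralateral libraries. Oligodendrocyte markers (12 genes) summed to 10368 to 23872, 5820 to 8230, 14892 to 23446 and 18782 to 20253 CPM in the groups in that order, and neuron markers (15 genes) stayed at 137 to 266 CPM in all libraries. No marker of these lists was at 0. Mouse 296 stood apart, with both libraries above the other 10 in 10.2% of 15571 tested genes and below them in 7.44%. Xist was at 4 to 8 counts there and at 9140 to 29592 in the other 10 libraries, and 4 Y-linked genes summed to 2733 to 2917 counts there and 0 to 8 in the others. By these counts mouse 296 was male and the other mice female, so sex was not balanced between WT and KO. In such bulk samples fewer cells of a type and less RNA per cell cannot be told apart.

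Potassium channels let potassium ions leave or enter cells along their gradient and so set the membrane potential. Voltage-gated channels open on depolarisation, with auxiliary subunits that change their gating and silent subunits that work only in mixed channels. Other families are opened by intracellular calcium or sodium, pass current best inward (inward rectifiers), or leak at rest (two-pore-domain channels). Astrocytes are known for a very negative resting potential and for taking up the potassium that active neurons release.

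The channel genes with the highest TPM were a mixture of families. Kcnk1, a two-pore-domain channel, led with a mean of 332.8 TPM over the 12 libraries. Its levels were 229, 380 and 257 TPM in KO ipsilateral, 464, 502 and 468 in KO contralateral, 208, 139 and 139 in WT ipsilateral and 449, 305 and 453 in WT contralateral libraries. Kcnip3, a calcium-binding partner of voltage-gated channels also known as a transcriptional repressor, had 149, 157 and 155 TPM in KO ipsilateral and 155, 135 and 129 in KO contralateral libraries. It had 42.3, 80.4 and 85.6 TPM in WT ipsilateral and 59.6, 90.6 and 113 in WT contralateral libraries, all below the 6 KO libraries. Kcnt1, a sodium-activated channel, had 28.6, 85.9 and 40.0 TPM in KO ipsilateral, 91.0, 141 and 135 in KO contralateral, 145, 24.4 and 25.1 in WT ipsilateral and 394, 116 and 73.8 in WT contralateral libraries. The order of the second and the third is therefore not settled: their levels overlap, and Kcnt1 owes its rank to mouse 296.

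**Figure D1:**
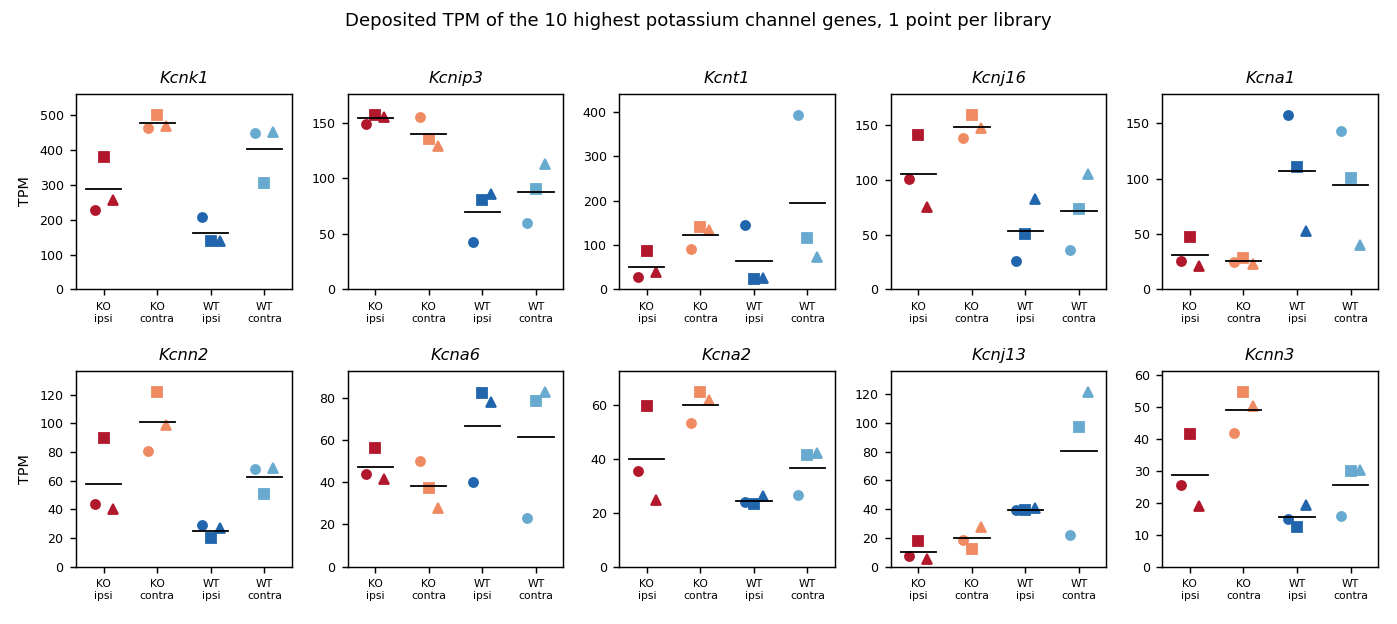
Deposited TPM (y axis, from 0) of the 10 members with the highest mean TPM, 1 point per library and a line at the group mean of 3. Circles, squares and triangles are mice 295, 298 and 300 in the KO groups and 296, 297 and 474 in the WT groups. Kcnk1 reaches 502 TPM and Kcnn3 54.9, and the mouse 296 circles stand far off in Kcnt1.

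Below these came Kcnj16, an inward rectifier that forms mixed channels with the product of Kcnj10. It had 100.3, 140.4 and 75.6 TPM in KO ipsilateral, 138, 159 and 147 in KO contralateral, 26.0, 50.8 and 82.7 in WT ipsilateral and 36.3, 73.0 and 105 in WT contralateral libraries. Kcna1, a voltage-gated channel known from axons beside the nodes of Ranvier, had 25.9, 47.7 and 20.8 TPM in KO ipsilateral, 25.1, 28.8 and 23.0 in KO contralateral, 158, 110.4 and 52.5 in WT ipsilateral and 143, 100.6 and 40.4 in WT contralateral libraries. The calcium-activated channel Kcnn2 had 43.5, 89.7 and 40.0 TPM in KO ipsilateral, 80.8, 122 and 99.1 in KO contralateral, 28.8, 20.1 and 26.8 in WT ipsilateral and 68.2, 50.7 and 68.6 in WT contralateral libraries. The ranges of all 3 overlap, so their order is not settled either.

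The other 4 of the top 10 were the voltage-gated Kcna6 and Kcna2, the inward rectifier Kcnj13 and the calcium-activated Kcnn3. Kcna6 had 43.8, 56.4 and 41.5 TPM in KO ipsilateral, 49.98, 37.5 and 27.8 in KO contralateral, 40.2, 82.2 and 77.9 in WT ipsilateral and 23.3, 78.5 and 82.9 in WT contralateral libraries. Kcna2 had 35.5, 59.5 and 24.6 TPM in KO ipsilateral, 53.3, 64.8 and 61.7 in KO contralateral, 24.0, 23.0 and 26.1 in WT ipsilateral and 26.3, 41.5 and 42.0 in WT contralateral libraries. Kcna2 was thus low in the ipsilateral WT libraries and spread widely in the ipsilateral KO ones. Kcnn3 had 25.5, 41.6 and 19.0 TPM in KO ipsilateral, 42.0, 54.9 and 50.4 in KO contralateral, 14.9, 12.3 and 19.3 in WT ipsilateral and 15.9, 30.1 and 30.4 in WT contralateral libraries.

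Kcnj13, known from choroid plexus epithelium, had 7.22, 17.96 and 5.31 TPM in KO ipsilateral, 18.5, 12.4 and 27.9 in KO contralateral, 39.1, 39.1 and 40.8 in WT ipsilateral and 21.9, 97.4 and 122 in WT contralateral libraries. The 8 choroid plexus and ependyma markers summed to 853 to 1640 CPM in KO ipsilateral, 1454 to 2733 in KO contralateral, 2977 to 6208 in WT ipsilateral and 4464 to 8220 in WT contralateral libraries. Their part in the levels of Kcnj13 was not tested. Among the 38 members outside the rule for named genes, mean levels ran from 0.137 TPM for Kcnb2 to 23.4 TPM for Kcnk13.

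Summed by class, the 9 two-pore-domain genes held 302 to 449 TPM in KO ipsilateral, 528 to 568 in KO contralateral, 212 to 271 in WT ipsilateral and 371 to 524 in WT contralateral libraries. The 11 genes grouped as calcium- or sodium-activated held 137 to 274, 297 to 404, 92.6 to 226 and 228 to 521 TPM in the groups in that order. This class was taken to include Kcnu1 and 3 beta subunit genes, Kcnmb1 among them. The 24 voltage-gated pore genes held 179 to 309, 291 to 311, 275 to 348 and 288 to 380 TPM. The 9 auxiliary subunit genes of voltage-gated channels held 197 to 218 and 192 to 215 TPM in the KO groups, above the 114 to 126 and 140.3 to 166 TPM of the WT groups. Most of these sums was Kcnip3, with group means of 153.9 and 139.9 TPM in KO and 69.4 and 87.7 TPM in WT. The class as a whole was not higher in KO: 5 of the 9 log2 fold changes of KO over WT were above 0 ipsilaterally and 4 contralaterally. The 10 inward rectifier genes spanned 85.7 to 252 TPM over all libraries and the 6 silent subunit genes 13.3 to 34.8 TPM.

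The first comparison asked what changed on the side of the blocked artery. In mice labelled WT, channel genes that passed were mostly lower ipsilaterally: 9 fell and 1 rose, of 69. The falls included the auxiliary subunit gene Kcnip2, the 3 two-pore-domain genes Kcnk1, Kcnk2 and Kcnk3, and the calcium-activated Kcnn2 and Kcnn1. The others that fell were the voltage-gated Kcnd1 and Kcnc4 and the inward rectifier Kcnj12, and the voltage-gated Kcna3 rose. In edgeR's quasi-likelihood test over all 12 libraries, with p-values adjusted by Benjamini-Hochberg over 15571 genes and calls at 0.05, 19.2% of all genes were called here, 9.61% higher and 9.54% lower. The share of members called in either direction, 14.5%, was thus below that of all genes, and the share called lower was 13%. The median log2 fold change was -0.48 over the members and -0.06 over all genes tested, with 50 of 69 members below 0. The 3 ipsilateral and 3 contralateral libraries did not overlap for 16 members (34% of all genes), 4 of them higher (17.3%) and 12 lower (16.6%).

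Kcnip2, whose product binds the voltage-gated subunits of the Kcnd genes, lies at chr19:45791839-45816061 (mm10). It had 1.81, 0.805 and 1.06 CPM in the WT ipsilateral libraries, against 6.78, 5.001 and 7.52 CPM in the WT contralateral ones. The groups lie far apart, and the log2 fold change was -2.38 ± 0.37 (SE, edgeR adjusted p = 0.00211), from 10 to 23 counts ipsilaterally. Its partner gene Kcnd1 (chrX:7822289-7838280), a pore subunit of the fast A-type current, had 7.41, 6.20 and 7.20 CPM ipsilaterally and 12.7, 11.6 and 14.4 CPM contralaterally. That is a log2 fold change of -0.89 ± 0.17 (edgeR adjusted p = 0.00574) with 3 narrow pairs of values.

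The other pore genes of that subfamily did not pass. Kcnd2 had 13.6, 8.78 and 15.3 CPM in WT ipsilateral and 15.2, 24.3 and 23.4 CPM in WT contralateral libraries (edgeR adjusted p = 0.115). Kcnd3 had 31.2, 18.1 and 29.6 CPM ipsilaterally and 18.4, 18.5 and 16.4 CPM contralaterally (edgeR adjusted p = 0.0521), so 2 of its 3 ipsilateral libraries lay above the rest. Kcnc4 (chr3:107438303-107459552), a fast voltage-gated pore subunit, had 7.33, 5.96 and 11.6 CPM ipsilaterally and 13.4, 21.2 and 31.1 CPM contralaterally. Its log2 fold change was -1.40 ± 0.35 (edgeR adjusted p = 0.0172), with the nearest libraries of the 2 groups 11.6 and 13.4 CPM.

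Of the two-pore-domain genes, Kcnk1 (chr8:125995170-126030685) had 142, 96.6 and 90.2 CPM in WT ipsilateral libraries, against 317, 202 and 329 CPM in WT contralateral ones. Its log2 fold change was -1.37 ± 0.24 (edgeR adjusted p = 0.00362), the ipsilateral share being 0.448, 0.477 and 0.274 of the contralateral level in the mice 296, 297 and 474. Kcnk2 (chr1:189207930-189402273), a channel opened by stretch and fatty acids, had 17.9, 8.62 and 14.5 CPM ipsilaterally and 39.0, 24.5 and 29.9 CPM contralaterally. Its log2 fold change was -1.18 ± 0.25 (edgeR adjusted p = 0.00784). Kcnk3 (chr5:30588170-30625271), a channel closed by acid, had 2.21, 1.69 and 1.13 CPM ipsilaterally and 5.13, 4.29 and 3.14 CPM contralaterally, a log2 fold change of -1.32 ± 0.34 (edgeR adjusted p = 0.0194). Each of these 3 genes overlaps an exon of a gene on the other strand, and how strand was treated in counting is not given in the sources used here. The other 6 two-pore-domain members did not pass.

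All 4 calcium-activated genes of the SK and IK type had fold changes below 0, and 2 of them passed. Kcnn2 (chr18:45268860-45686024) had 64.3, 45.9 and 56.8 CPM in WT ipsilateral and 157, 110.3 and 163 CPM in WT contralateral libraries. Its log2 fold change was -1.37 ± 0.28 (edgeR adjusted p = 0.00681). Kcnn1 (chr8:70842049-70863258) had 5.75, 8.94 and 7.55 CPM ipsilaterally and 8.96, 14.2 and 16.4 CPM contralaterally, groups that just fail to overlap, with a log2 fold change of -0.83 ± 0.27 (edgeR adjusted p = 0.0489). Kcnn3 had 47.4, 39.9 and 58.4 CPM ipsilaterally and 52.5, 93.4 and 103 CPM contralaterally, and did not pass (edgeR adjusted p = 0.0679). Both called genes overlap exons of a gene on the other strand.

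Among 10 inward rectifier genes 9 had fold changes below 0 and 1 passed. Kcnj12 (chr11:61022564-61071131) had 1.97, 1.37 and 1.34 CPM in WT ipsilateral and 3.30, 3.41 and 2.89 CPM in WT contralateral libraries, a log2 fold change of -1.04 ± 0.30 (edgeR adjusted p = 0.031). Kcnj16 had 31.2, 62.3 and 94.4 CPM ipsilaterally and 45.1, 85.3 and 134 CPM contralaterally, lower in each mouse but spread over both groups (edgeR adjusted p = 0.407). The call of Kcnj12 was kept in 6 of 10 other settings and in 10 of the 18 that dropped 1 library or 1 mouse.

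Kcna3 was the 1 member that rose. This voltage-gated channel gene, known from T cells and microglia, lies at chr3:107036169-107038070. It had 3.31, 7.01 and 7.48 CPM in WT ipsilateral libraries, from 42, 87 and 106 counts, against 0.783, 1.11 and 0.248 CPM in WT contralateral ones, from 9, 14 and 3 counts. The log2 fold change was 3.03 ± 0.55 (edgeR adjusted p = 0.00401). The summed CPM of 14 microglia and macrophage markers was 1317 to 1993 in WT ipsilateral and 605 to 819 in WT contralateral libraries. The part of these cells in the rise of Kcna3 was not tested.

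**Figure D2:**
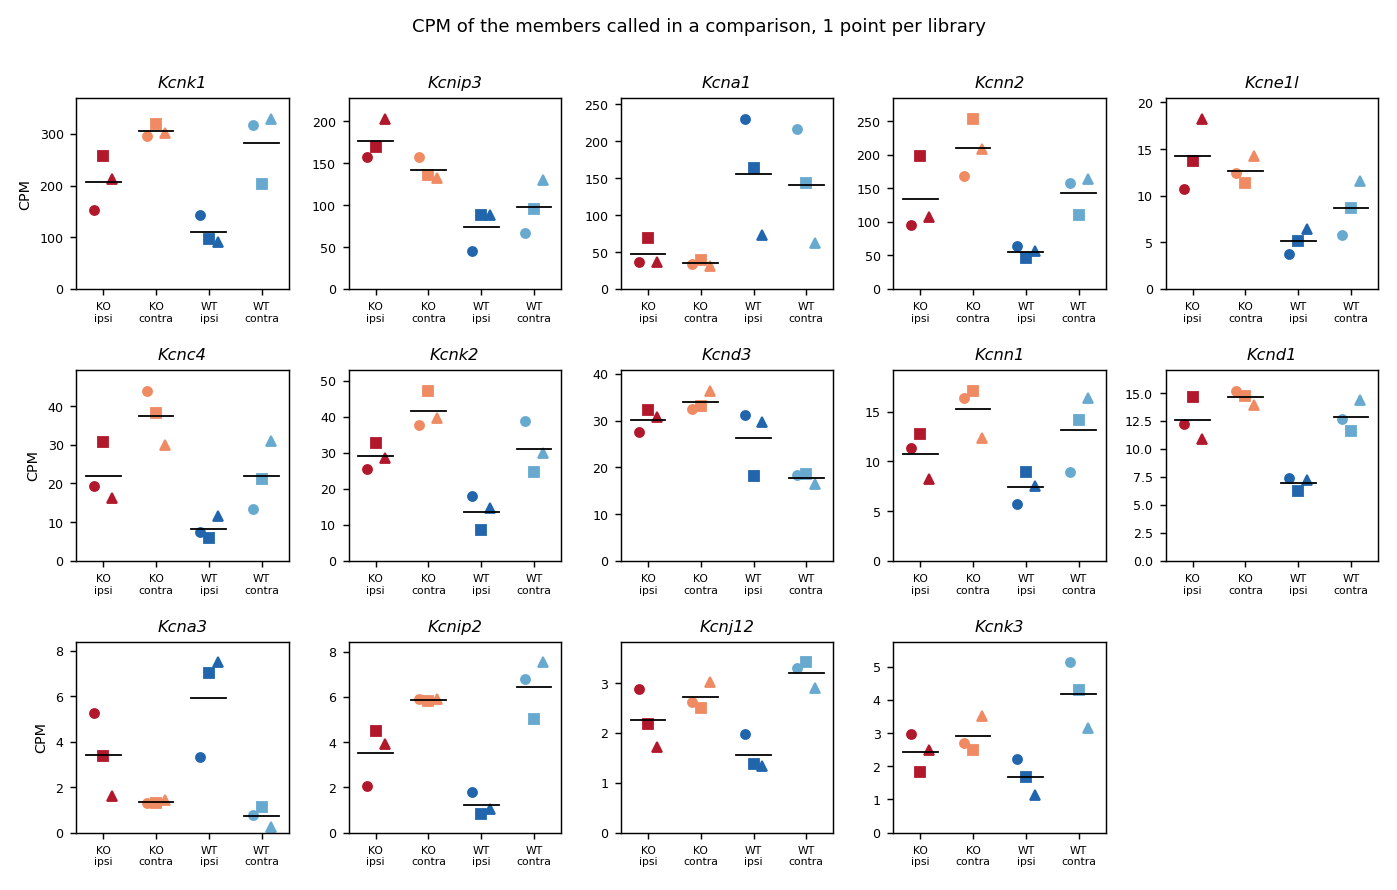
CPM (y axis, from 0) of the 14 members called in a comparison, 1 point per library and a line at the mean of 3. Circles, squares and triangles are mice 295, 298 and 300 in the KO groups and 296, 297 and 474 in the WT groups. WT ipsilateral points lie below WT contralateral ones in the 9 genes that fell and above them in Kcna3.

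Astrocyte markers moved on the same side, where 9.54% of all genes were called lower. Of these markers 10 of 12 were called lower in WT ipsilateral than in WT contralateral libraries, with a median log2 fold change of -0.90. Pericyte and smooth muscle markers were called lower in 6 of 10, with sums of 790 to 1081 CPM in WT ipsilateral and 1329 to 1530 CPM in WT contralateral libraries. Their part in the falls of the channel genes was not tested. With the mouse as a block, 19 members passed, 2 higher and 17 lower, against 14.7% higher and 15.1% lower of all genes. The 9 that this fit added were Kcnt1, Kcnj14, Kcnj16, Kcng4, Kcne1l, Kcnn3, Kcna2 and Kcnu1, all lower, and Kcnj2, higher. Kcnt1 had a log2 fold change of -1.80 ± 0.21 in that fit (edgeR adjusted p = 0.00108), being lower ipsilaterally in each mouse at 0.355, 0.221 and 0.303 of the contralateral level. Kcnj16 had -0.50 ± 0.12 (edgeR adjusted p = 0.0142) and Kcnj2 0.71 ± 0.18 (edgeR adjusted p = 0.0206). Without mouse 296, 17 members passed, where 20.9% of all genes did, 2 of them higher (10.7% of all genes) and 15 lower (10.3%).

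To show what lies before genes that moved, the 250 bases upstream of an annotated start are given for Kcnip2, Kcnk1, Kcnk2 and Kcna3, and for Kcnip3, which is described further on. They are from RefSeq on GRCm38.p6, 5′ to 3′ on the strand of the gene, at chr19:45816064-45816313 (minus) for Kcnip2, chr8:125994852-125995101 (plus) for Kcnk1, chr1:189344193-189344442 (minus) for Kcnk2, chr3:107035912-107036161 (plus) for Kcna3 and chr2:127522095-127522344 (minus) for Kcnip3. Kcnk2 has 4 such windows and Kcnip3 3, and the one holding a motif is shown. Capitals mark TGACTCA, the motif of AP-1 factors.
Kcnip2: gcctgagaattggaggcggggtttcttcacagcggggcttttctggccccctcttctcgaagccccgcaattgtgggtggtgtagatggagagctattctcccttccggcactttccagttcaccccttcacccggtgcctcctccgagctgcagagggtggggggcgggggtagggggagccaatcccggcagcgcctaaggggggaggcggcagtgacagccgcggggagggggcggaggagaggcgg
Kcnk1: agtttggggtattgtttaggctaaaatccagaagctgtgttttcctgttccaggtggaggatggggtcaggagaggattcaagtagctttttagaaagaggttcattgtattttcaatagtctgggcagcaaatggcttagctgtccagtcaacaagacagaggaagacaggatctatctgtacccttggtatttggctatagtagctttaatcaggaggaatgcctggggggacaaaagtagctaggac
Kcnk2: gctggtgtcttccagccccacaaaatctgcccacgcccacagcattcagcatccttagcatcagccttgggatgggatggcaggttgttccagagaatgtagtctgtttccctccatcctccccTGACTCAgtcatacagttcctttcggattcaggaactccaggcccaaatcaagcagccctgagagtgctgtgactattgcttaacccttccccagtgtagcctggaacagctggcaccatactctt
Kcna3: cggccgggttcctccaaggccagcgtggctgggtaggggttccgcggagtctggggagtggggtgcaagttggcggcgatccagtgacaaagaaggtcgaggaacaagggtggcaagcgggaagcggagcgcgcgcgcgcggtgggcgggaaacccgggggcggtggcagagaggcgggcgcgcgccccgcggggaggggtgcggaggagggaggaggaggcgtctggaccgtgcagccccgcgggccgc
Kcnip3: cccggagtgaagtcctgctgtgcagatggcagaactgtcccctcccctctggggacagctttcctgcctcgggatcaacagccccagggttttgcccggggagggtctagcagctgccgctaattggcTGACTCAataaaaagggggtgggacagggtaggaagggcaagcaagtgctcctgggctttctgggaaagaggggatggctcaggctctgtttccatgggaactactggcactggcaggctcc
The windows are 66.8%, 44.4%, 53.2%, 74.4% and 60% G or C in the order printed. On both strands TGACTCA, whose reverse complement is TGAGTCA, was in 4.46% of 32851 windows of all genes and in 2 of the 71 windows of 49 matched members, those of Kcnk2 and Kcnip3. The cyclic AMP motif TGACGTCA was in 1.55% of all windows and 0 of 71, and ACGTG, the core of the hypoxia motif, in 16.6% of all windows and 10 of 71. No search of further motifs was made, and a match is only a run of letters.

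In mice labelled KO, 0 of 69 members passed between the hemispheres in edgeR's test, where 6.29% of all genes did, 5.45% higher and 0.841% lower. DESeq2 also called 0 members, where it called 13.2% of all genes. The smallest edgeR adjusted p was 0.121, and 10 members had an unadjusted p of 0.05 or less. The median over the members was again below 0, at -0.42 on the log2 scale against -0.01 over all genes, with 50 of 69 members below 0. The libraries of the hemispheres did not overlap for 22 members (38.8% of all genes), 4 higher (18.6%) and 18 lower (20.2%). The values of 3 of the genes called in WT mice follow. Kcnip2 had 2.07, 4.50 and 3.92 CPM in KO ipsilateral libraries, against 5.89, 5.81 and 5.92 CPM in KO contralateral ones (edgeR log2 fold change -0.75 ± 0.34, adjusted p = 0.183). Kcnk1 had 153, 257 and 212 CPM ipsilaterally and 296, 318 and 301 CPM contralaterally (-0.56 ± 0.24, edgeR adjusted p = 0.162). Neither pair of groups overlaps. Kcnn2 had 95.2, 198 and 108 CPM ipsilaterally and 169, 254 and 209 CPM contralaterally (-0.65 ± 0.27, edgeR adjusted p = 0.155), with mouse 298 the highest on both sides.

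Kcna3 had 5.26, 3.38 and 1.62 CPM in KO ipsilateral and 1.31, 1.32 and 1.45 CPM in KO contralateral libraries (edgeR log2 fold change 1.33 ± 0.51, adjusted p = 0.128). In the same 3 ipsilateral libraries the microglia and macrophage markers summed to 3190, 2084 and 566 CPM, so both were highest in mouse 295 and lowest in mouse 300. In the KO contralateral libraries these markers summed to 1777, 1046 and 998 CPM, highest in mouse 295, while Kcna3 was nearly level. The part of these cells in the levels of Kcna3 was not tested. Kcnk13 and Kcnk6, two-pore-domain channel genes, had 24.3, 19.7 and 17 CPM and 20.9, 14.6 and 4.58 CPM in the KO ipsilateral libraries. In the KO contralateral ones they had 16.04, 8.67 and 7.06 CPM and 10.6, 7.42 and 9.58 CPM.

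With the mouse as a block 7 members passed in KO mice, 6 lower, among them Kcnt1, Kcnn2, Kcnk2, Kcnma1 and Kcnc4, and 1 higher, Kcnk13, where 5.1% of all genes passed lower and 10.9% higher. Kcnt1 led with 81.1, 247 and 140.0 CPM in KO ipsilateral and 247, 381 and 368 CPM in KO contralateral libraries. Its blocked log2 fold change was -1.21 ± 0.21 (edgeR adjusted p = 0.0123). Kcnn2 had -0.71 ± 0.13 in that fit (edgeR adjusted p = 0.0146) and Kcnk13 1.01 ± 0.23 (edgeR adjusted p = 0.0253). Without the KO ipsilateral library of mouse 298, 6 members passed in the fit with no block (8.7%), where 14.4% of all genes did. Without mouse 296, 1 passed, which was lower, where 11.8% of all genes passed, 9.13% higher and 2.67% lower.

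Whether the hemispheres differed unlike in KO and WT mice was tested as an interaction. It passed for 0 of 69 members and for 0 of 15571 genes in edgeR's test. In DESeq2 it passed for 0 members, but only 2 of them had an adjusted p there. Of the 1081 genes with an adjusted p in DESeq2, 1.85% passed. In edgeR's test 7 members had an unadjusted p of 0.05 or less. Kcnip2 had the smallest of these, a difference of 1.64 ± 0.49 on the log2 scale (edgeR adjusted p = 0.948). So calls in WT and not in KO mice are not shown to differ between them. The ipsilateral level as a share of the contralateral one was 0.352 to 0.775 in KO and 0.141 to 0.267 in WT mice for Kcnip2. It was 0.516 to 0.806 in KO and 0.274 to 0.477 in WT mice for Kcnk1, and 0.782 to 0.99 in KO and 0.501 to 0.583 in WT mice for Kcnd1. Those 3 genes were apart, as were Kcnk2, Kcnk3, Kcnn1, Kcnn2 and Kcna3. Kcnc4 (0.437 to 0.806 in KO and 0.281 to 0.547 in WT mice) and Kcnj12 (0.568 to 1.1 in KO and 0.401 to 0.596 in WT mice) overlapped. All of these genes were picked because they were called in WT mice, so a strong shift in WT mice is built into the choice. Their separation therefore cannot decide whether KO and WT mice differ. Over all members the 3 KO mice were above the 3 WT mice in 11 (15.9%, against 10.7% of all genes) and below them in 5 (7.25%, against 6.2%).

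Counted over mice, 18 of 69 members were lower ipsilaterally in all 6 and 3 were higher, where 19.5% and 19% of all genes were. The 18 included Kcna2, Kcna5, Kcnc4, Kcnd1, Kcnd2, Kcng2, Kcnip2, Kcnj14, Kcnj16, Kcnk1, Kcnk2, Kcnn1, Kcnn2, Kcnn3, Kcns1, Kcnt1 and Kcnu1. The 3 were Kcna1, Kcna3 and Kcnq1.

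**Figure D3:**
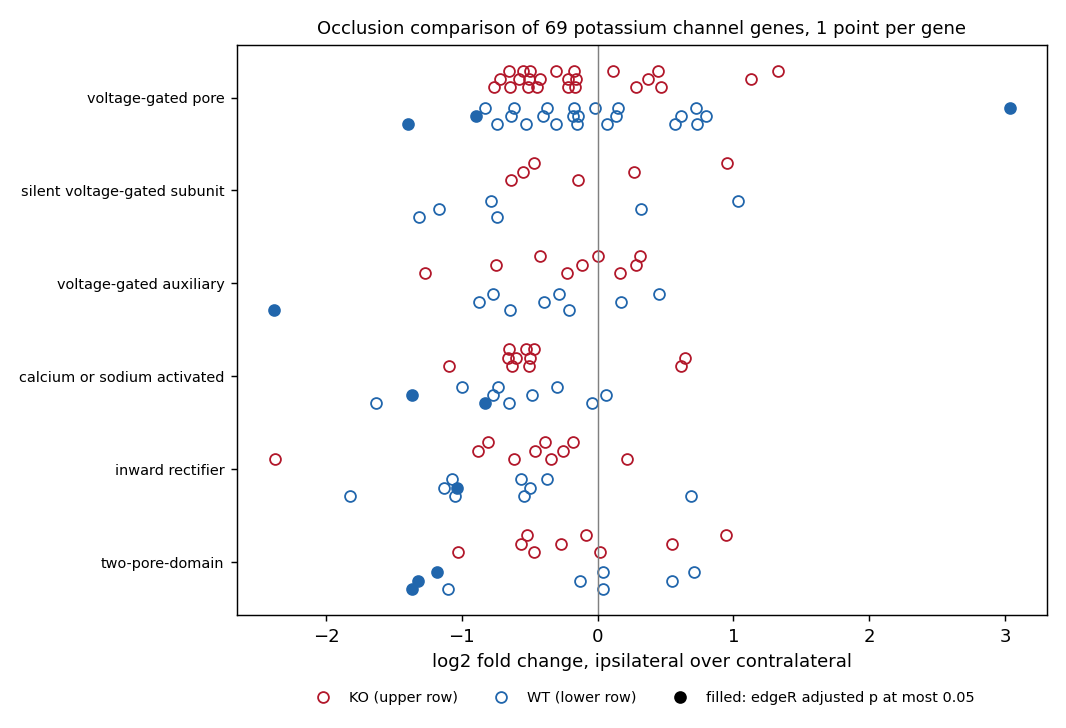
Log2 fold change of ipsilateral over contralateral libraries (x axis) for each of 69 members, by class of channel (y axis), with KO mice in the upper and WT mice in the lower row of each class and filled points for an edgeR adjusted p of at most 0.05. In both genotypes 50 of 69 points lie left of 0, and the filled points are all WT, with Kcna3 far right at 3.03 and Kcnip2 far left at -2.38.

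The comparison of KO with WT mice on the ipsilateral side asks how the cells selected by ACSA-2 differed after the occlusion. These were mixtures. Astrocyte markers summed to 19230 to 29945 CPM in KO and 10903 to 12838 CPM in WT ipsilateral libraries. Oligodendrocyte markers summed to 10368 to 23872 and 14892 to 23446 CPM. In this comparison 8 members were higher in KO and 1 lower, 13% of 69, where 6.31% of all genes were called, 4.33% higher and 1.98% lower. Higher in KO were the auxiliary subunit genes Kcnip2, Kcnip3 and Kcne1l, the voltage-gated Kcnd1 and Kcnc4, the two-pore-domain Kcnk1 and Kcnk2 and the calcium-activated Kcnn2. Kcna1 was lower. The members' median log2 fold change was 0.16, against 0.02 over all genes tested. The KO and WT libraries did not overlap for 22 members (23.9% of all genes), 16 higher (13.7%) and 6 lower (10.1%). Of the 9 members called lower ipsilaterally in WT mice, 6 were among these 8, but both comparisons use the same WT ipsilateral libraries, so nothing is read from that count.

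Among the auxiliary genes, Kcnip2 had the 2.07, 4.50 and 3.92 CPM of KO ipsilateral libraries against 1.81, 0.805 and 1.06 CPM in WT ipsilateral ones. Its log2 fold change was 1.51 ± 0.37 (edgeR adjusted p = 0.0331), with mouse 295 close to mouse 296. Kcnip3 (chr2:127456498-127522094) had 158, 169 and 203 CPM in KO ipsilateral and 45.8, 88.7 and 88.0 CPM in WT ipsilateral libraries. Its log2 fold change was 1.25 ± 0.27 (edgeR adjusted p = 0.021), and on the contralateral side it had 157, 136 and 132 CPM in KO against 66.7, 95.4 and 130.1 CPM in WT libraries, which did not pass. Kcne1l (chrX:142304752-142306294), a small single-span subunit, had 10.7, 13.7 and 18.2 CPM in KO ipsilateral and 3.70, 5.15 and 6.42 CPM in WT ipsilateral libraries (log2 fold change 1.47 ± 0.30, edgeR adjusted p = 0.017). Mouse 296 was the lowest for Kcnip3 and Kcne1l on either side.

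Of the pore genes, Kcnd1 had 12.2, 14.6 and 10.9 CPM in KO ipsilateral libraries against 7.41, 6.20 and 7.20 CPM in WT ipsilateral ones (log2 fold change 0.86 ± 0.17, edgeR adjusted p = 0.017). Kcnc4 had 19.3, 30.7 and 16.1 CPM in KO and 7.33, 5.96 and 11.6 CPM in WT libraries (1.41 ± 0.35, edgeR adjusted p = 0.0346). Kcnk1 had 153, 257 and 212 CPM in KO and 142, 96.6 and 90.2 CPM in WT libraries (0.92 ± 0.24, edgeR adjusted p = 0.0426). Its lowest KO and highest WT libraries were thus close, while those of Kcnd1 stood well apart. Kcnk2 had 25.6, 32.8 and 28.6 CPM in KO and 17.9, 8.62 and 14.5 CPM in WT libraries (1.08 ± 0.25, edgeR adjusted p = 0.0264). Kcnn2 had 95.2, 198 and 108 CPM in KO and 64.3, 45.9 and 56.8 CPM in WT libraries (1.27 ± 0.28, edgeR adjusted p = 0.0216). Kcnd2 just missed the threshold, with 17.2, 41.7 and 23.7 CPM in KO and 13.6, 8.78 and 15.3 CPM in WT libraries (1.13 ± 0.31, edgeR adjusted p = 0.0512).

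Kcna1 (chr6:126640397-126646384) was the 1 member called lower. It had 37.0, 68.9 and 36.7 CPM in KO ipsilateral libraries, against 230.4, 164 and 72.8 CPM in WT ipsilateral ones (log2 fold change -1.71 ± 0.46, edgeR adjusted p = 0.0491). Contralaterally it had 34.3, 39.0 and 31.6 CPM in KO and 216, 143 and 62.7 CPM in WT libraries (-2.01 ± 0.47, edgeR adjusted p = 0.0597), not called. The highest KO library on either side was below the lowest WT library of the same side, and among WT mice 296 was the highest and 474 the lowest in both hemispheres. Oligodendrocyte markers were called lower in KO in 3 of 12 ipsilaterally (1.98% of all genes) and 5 of 12 contralaterally (1.41%), with the sums given above. Their part in the level of Kcna1 was not tested.

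**Figure D4:**
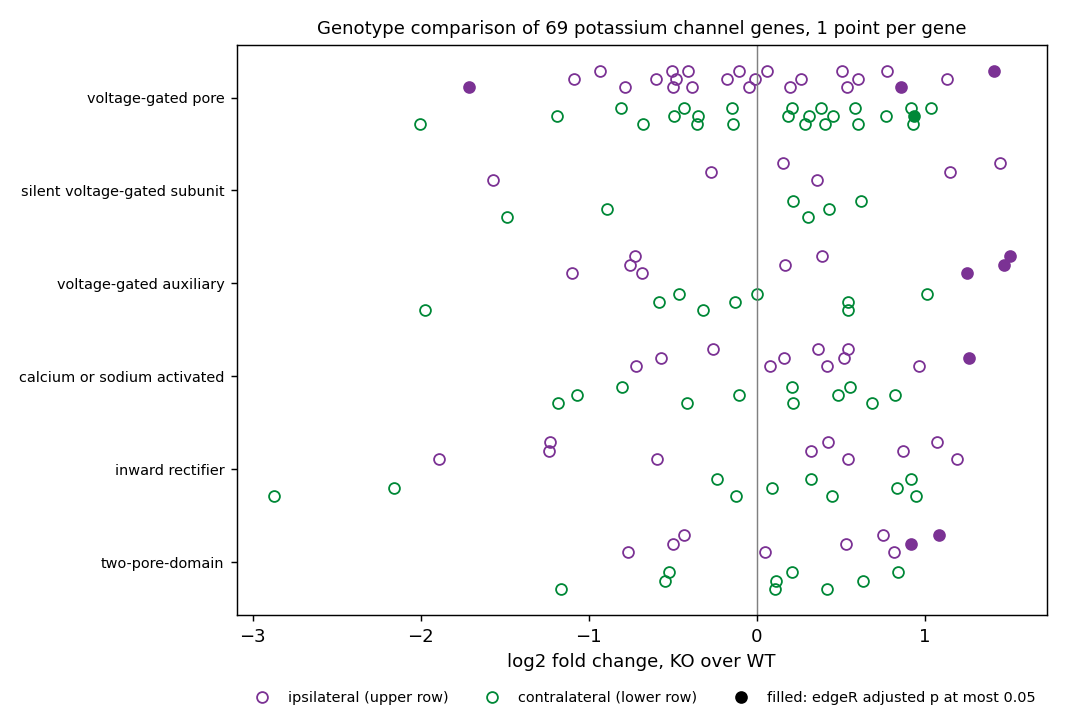
Log2 fold change of KO over WT libraries (x axis) for each of 69 members, by class of channel (y axis), with the ipsilateral side in the upper and the contralateral side in the lower row and filled points for an edgeR adjusted p of at most 0.05. On the ipsilateral side 8 filled points lie right of 0 and Kcna1 left of it, and on the contralateral side Kcnd3 alone is filled.

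Where 4.33% of all genes were called higher in KO than in WT ipsilateral libraries, astrocyte markers were in 9 of 12. Their median log2 fold change was 1.02, and pericyte and smooth muscle markers were called higher in 5 of 10. Their part in these differences was not tested. The count of 9, where 6.31% of all genes were called, rests on single libraries, and calls over all genes fell with it. Without the WT ipsilateral library of mouse 297 it was 0, where 0.41% of all genes passed. Without the KO ipsilateral library of mouse 298 it was 1, where 2.39% of all genes passed. From the deposited TPM, where 59 members passed the filter, it was 2, with 4.19% (TPM + 1) or 4.13% (TPM + 0.1) of all genes. Without mouse 296 it was 8 (6.15% of all genes), 7 higher (3.93%) and 1 lower (2.22%), with Kcnj13 lower and neither Kcnc4 nor Kcna1 called.

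On the contralateral side, which the occlusion did not strike directly, 1 of 69 members passed between KO and WT mice, where 1.5% of all genes did, 0.0835% higher and 1.41% lower. The libraries did not overlap for 17 members (24.5% of all genes), 13 higher (11%) and 4 lower (13.5%). The member that passed was Kcnd3 (chr3:105452330-105674002), a pore subunit of the A-type current. It had 32.4, 33.2 and 36.4 CPM in KO contralateral libraries against 18.4, 18.5 and 16.4 CPM in WT contralateral ones (log2 fold change 0.94 ± 0.19, edgeR adjusted p = 0.0295). Ipsilaterally it had 27.6, 32.2 and 30.8 CPM in KO and 31.2, 18.1 and 29.6 CPM in WT libraries, which overlap. Without any 1 of the 6 contralateral libraries Kcnd3 did not pass, and its exons overlap those of Kcnd3os on the other strand. Kcnd2, of the same subfamily, had 40.8, 44.7 and 43.9 CPM in KO and 15.2, 24.3 and 23.4 CPM in WT contralateral libraries, apart but not called (log2 fold change 1.04 ± 0.30, edgeR adjusted p = 0.137).

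Kcnj13 was low in KO mice on both sides without passing. It had 2.74, 6.89 and 2.48 CPM in KO ipsilateral against 15.1, 15.5 and 15.03 CPM in WT ipsilateral libraries (log2 fold change -1.89 ± 0.57, edgeR adjusted p = 0.0706). Contralaterally it had 6.71, 4.48 and 10.2 CPM in KO against 8.78, 36.8 and 50.2 CPM in WT libraries (-2.16 ± 0.55, edgeR adjusted p = 0.0856), the 8.78 being mouse 296. Without mouse 296, 4 members passed contralaterally, Kcnj13, Kcna6 and Kcnk13 lower and Kcnd3 higher, where 2.12% of all genes passed, 0.0955% higher and 2.02% lower. The exons of Kcnj13 overlap those of Gigyf2 on the other strand.

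Mouse 296 stood apart in members as in other genes. Both of its libraries were above the other 10 for 11 members (15.9%, against 10.2% of all genes) and below them for 5 (7.25%, against 7.44%). The 11 included Kcna1, Kcnab3, Kcne4, Kcnf1, Kcng2, Kcnip1, Kcnj11, Kcnma1 and Kcnt1, and the 5 were Kcna4, Kcng4, Kcnip3, Kcnj16 and Kcnmb1. Kcnab3, an auxiliary beta subunit gene, had 14.9 and 28.7 CPM in the ipsilateral and contralateral libraries of mouse 296. It had 1.9997, 3.59 and 3.15 CPM in KO ipsilateral, 3.19, 2.57 and 2.96 in KO contralateral, and 1.93, 1.98, 2.38 and 3.39 CPM in the other WT libraries. Kcnt1 had 420 CPM ipsilaterally and 1182 CPM contralaterally in mouse 296, where the other WT mice had 72.0 and 69.2 CPM ipsilaterally and 326 and 228 CPM contralaterally.

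**Figure D5:**
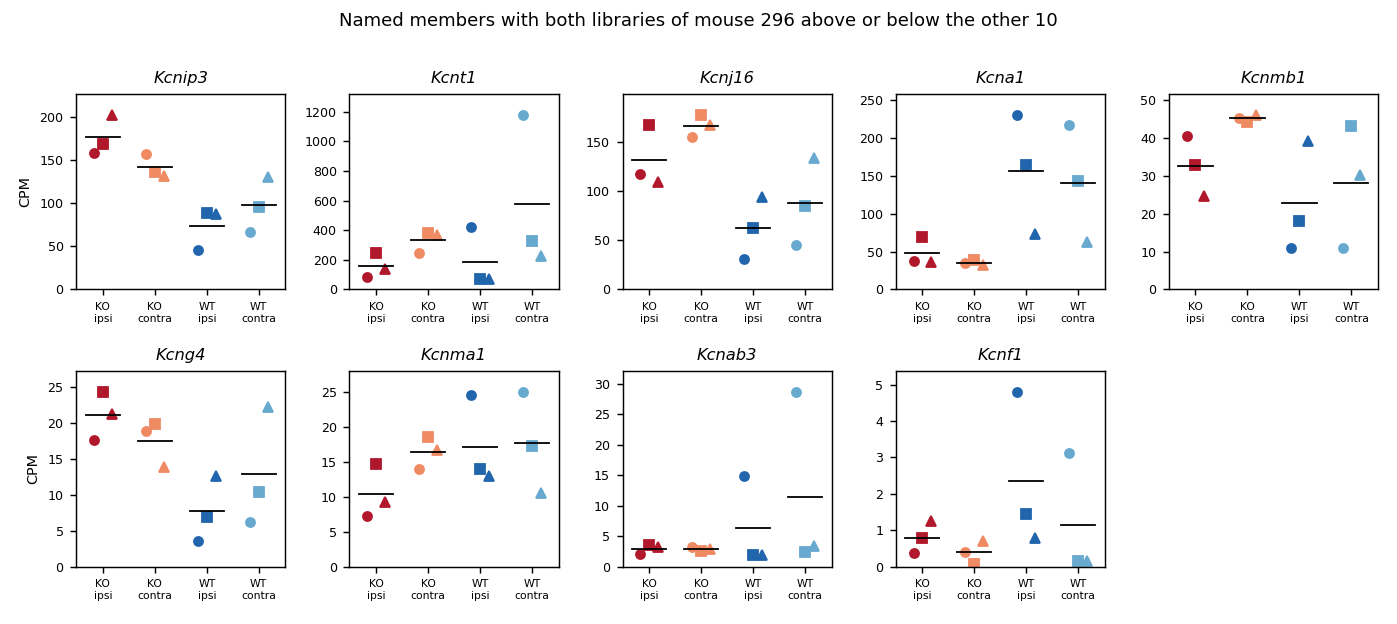
CPM (y axis, from 0) of the 9 members under the rule for named genes for which both libraries of mouse 296 (circles in the WT groups) lie above or below the other 10, 1 point per library and a line at the mean of 3. Squares and triangles are mice 298 and 300 in the KO groups and 297 and 474 in the WT groups, and KO circles are mouse 295. Kcnab3 and Kcnf1 show the circles of mouse 296 far above the rest, and Kcnmb1, Kcng4 and Kcnj16 show them lowest.

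The leading genes of the remaining subfamilies passed no comparison in the fit without the block. Kcnma1, the large-conductance calcium-activated pore, had 7.18, 14.7 and 9.26 CPM in KO ipsilateral, 14.0, 18.6 and 16.6 in KO contralateral, 24.6, 14.0 and 12.9 in WT ipsilateral and 25.05, 17.3 and 10.6 in WT contralateral libraries. Its beta subunit gene Kcnmb1 had 40.4, 32.9 and 24.7 CPM in KO ipsilateral, 45.2, 44.3 and 46.2 in KO contralateral, 11.03, 18.1 and 39.3 in WT ipsilateral and 10.96, 43.1 and 30.3 in WT contralateral libraries. The silent subunit gene Kcng4 had 17.6, 24.3 and 21.3 CPM in KO ipsilateral, 18.8, 19.8 and 13.8 in KO contralateral, 3.55, 6.93 and 12.6 in WT ipsilateral and 6.17, 10.4 and 22.2 in WT contralateral libraries. For both Kcnmb1 and Kcng4 the WT mice were spread far more widely than the KO mice.

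Kcnq3, a pore subunit of M-current channels, had 26.2, 57.1 and 29.8 CPM in KO ipsilateral, 38.8, 53.7 and 47.6 in KO contralateral, 43.6, 66.9 and 47.3 in WT ipsilateral and 63.9, 59.2 and 55.5 in WT contralateral libraries. Kcnh2, of the Erg type, had 8.15, 6.26 and 5.63 CPM in KO ipsilateral, 9.33, 10.8 and 11.3 in KO contralateral, 13.1, 6.28 and 6.92 in WT ipsilateral and 10.6, 17.9 and 11.7 in WT contralateral libraries. Kcnh2 was lower ipsilaterally in all but mouse 296.

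The last of the subfamily leaders were the silent subunit genes Kcns1 and Kcnf1 and the sperm channel gene Kcnu1. Kcns1 had 4.67, 5.91 and 3.63 CPM in KO ipsilateral, 6.79, 8.01 and 7.37 in KO contralateral, 2.91, 2.50 and 5.65 in WT ipsilateral and 3.04, 8.26 and 7.77 in WT contralateral libraries. Kcnu1 had 0.592, 1.41 and 1.05 CPM in KO ipsilateral, 1.31, 1.62 and 1.39 in KO contralateral, 1.497, 1.85 and 1.20 in WT ipsilateral and 2.44, 3.49 and 3.14 in WT contralateral libraries, the last group lying above all others. Kcnf1 had at most 1.45 CPM outside mouse 296, which had 4.81 CPM ipsilaterally and 3.13 CPM contralaterally.

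Genes that work with these channels, or conduct potassium without a Kcn name, were given as a list of 33, of which 28 had enough counts. In WT mice 3 were called higher and 4 lower ipsilaterally, where 9.61% and 9.54% of all genes were, and in KO mice 3 higher and 0 lower (5.45% and 0.841% of all genes). KO against WT called 3 higher and 3 lower ipsilaterally (4.33% and 1.98% of all genes), and 0 higher and 2 lower contralaterally (0.0835% and 1.41%). Hcn2, a channel opened by hyperpolarisation, had 66.8, 77.5 and 78.6 CPM in KO ipsilateral against 156, 249 and 162 CPM in WT ipsilateral libraries (log2 fold change -1.35 ± 0.24, edgeR adjusted p = 0.0117). Contralaterally Hcn2 had 61.5, 43.9 and 30.9 CPM in KO against 153, 149 and 189 CPM in WT libraries (-1.85 ± 0.25, edgeR adjusted p = 0.00865). Lgi3, a secreted partner of channel complexes, was also lower in KO on both sides (-1.20 ± 0.28 and -1.56 ± 0.29, edgeR adjusted p = 0.0288 and 0.021). The oligodendrocyte markers summed to 10368 to 23872 CPM in KO and 14892 to 23446 in WT ipsilateral libraries, and to 5820 to 8230 CPM in KO and 18782 to 20253 in WT contralateral ones. Their part in the levels of Hcn2 and Lgi3 was not tested.

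Ank3, which anchors channels at the axon initial segment, had 170.0, 148 and 198 CPM in KO ipsilateral, 99.2, 79.9 and 70.1 in KO contralateral, 256, 481 and 344 in WT ipsilateral and 191, 196 and 130.2 in WT contralateral libraries. It rose ipsilaterally in both genotypes (1.05 ± 0.24 in KO and 1.06 ± 0.24 in WT, edgeR adjusted p = 0.028 and 0.0109). Dlg1, a scaffold protein gene, did likewise (0.56 ± 0.13 in KO and 0.63 ± 0.13 in WT, edgeR adjusted p = 0.0302 and 0.00766). Its relative Dlg4 fell in WT mice (-0.80 ± 0.15, edgeR adjusted p = 0.00543), with 50.7, 38.7 and 53.3 CPM ipsilaterally against 93.1, 69.5 and 85.0 CPM contralaterally. Amigo1, an auxiliary subunit of voltage-gated channels, and Lgi1 fell there too (-0.93 ± 0.22 and -1.22 ± 0.30, edgeR adjusted p = 0.015 and 0.0171), and calmodulin gene Calm2 rose (0.41 ± 0.10, edgeR adjusted p = 0.0174). In KO mice Dlg4, Amigo1 and Lgi1 were also lower ipsilaterally but did not pass (-0.34 ± 0.15, -0.48 ± 0.22 and -0.76 ± 0.30). Their edgeR adjusted p was 0.178, 0.19 and 0.136. On the ipsilateral side Ank3 was lower in KO than in WT mice (-1.07 ± 0.24, edgeR adjusted p = 0.0246). Dlg4 and Amigo1 were higher (0.69 ± 0.15 and 0.93 ± 0.22, edgeR adjusted p = 0.0222 and 0.0321).

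Of the genes left out by name, Kcnj10, the main astrocyte inward rectifier, had 929, 1239 and 860 CPM in KO ipsilateral against 630.2, 591 and 694 CPM in WT ipsilateral libraries. It was called in that comparison alone of the 5 (log2 fold change 0.66 ± 0.18, edgeR adjusted p = 0.0495), while Kcnj8 and Kcne2 passed none.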

How the data were processed

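The authors deposited 1 table of 48709 genes per library, with whole-number read counts, TPM and RPKM per gene. Per the submitters' processing notes the build was mm10, with aligner, counter and strand not given in the sources used here. Deposited TPM and counts were proportional within 2% across libraries for 66 of 69 members. The deposited RPKM were not used. Counts went into edgeR 4.0.16 (R 4.3.3): filterByExpr with a minimum count of 10, TMM scaling, robust quasi-likelihood fit of 4 groups over 12 libraries (8 residual degrees of freedom), Benjamini-Hochberg adjustment over 15571 genes. SE is the fold change divided by the root of F. The scripts were tested on simulated data. Positions are from GENCODE M21. Libraries of a group were not duplicates (chi-squared over degrees of freedom 11.3 to 70.6 for each pair).

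Members, lists and the rule for named genes (called members, the 10 highest by TPM, the highest of each subfamily, at most 8 partner genes) were chosen with earlier results of these data known. The 2 libraries of a mouse were paired by its number. Their deviations from group means correlated at 0.36, 0.45 and 0.19 (295, 298, 300) and 0.68, -0.0064 and 0.42 (296, 297, 474). Alternatives were DESeq2 1.42.0, limma 3.58.1 (voom, or log2 of TPM plus 1 or 0.1), other scalings and filters, fits of 2 groups, the mouse block and left-out libraries and mice. The targeted gene and a few members are not reported by name here.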

Additional observations from a re-analysis of the deposited data

How the results depend on the processing

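The number of members called depended on the settings. Of the single values tried, 0 that were called in the main or the other fit reversed in direction. A call was lost for 170, gained for 68 and unchanged for 3992. The 3992 include values called in neither fit, so that number is no measure of how stable the calls were. Changes of sign in values called in neither fit were not counted. With the mouse as replicate block, 19 members passed in WT mice (10 without it) and 7 in KO mice (0 without it). Of all genes 29.8% and 16% passed with the block, against 19.2% and 6.29% without it. The block changed no call of the interaction. With only the 2 groups compared in the fit, from fewer libraries, 5 passed in WT mice (10.5% of all genes) and 1 in KO mice (11.9%). Between KO and WT such fits called 0 ipsilaterally (1.31% of all genes) and 3 contralaterally (1.79%). DESeq2 called 15 members ipsilaterally and 4 contralaterally between KO and WT, against 9 and 1 by edgeR. Of all genes it called 11.7% and 4.51%, against 6.31% and 1.5% by edgeR. Limma on log2(TPM + 1) and on log2(TPM + 0.1) called 2 ipsilaterally and 0 contralaterally. Of all genes these called 4.19% and 4.13% ipsilaterally and 0.91% and 0.855% contralaterally. The cause of these shifts was not tested. Leaving out 1 library gave 7 to 18 members in WT mice, 0 to 6 in KO mice, 0 to 15 between KO and WT ipsilaterally, 0 to 2 contralaterally and 0 for the interaction. The shares of all genes called then ran from 9.05% to 22.8%, 0.145% to 14.4%, 0.41% to 8.37% and 0% to 1.82%, and were 0% for the interaction. Leaving out 1 mouse gave 6 to 17, 0 to 1, 0 to 12, 0 to 4 and 0. Of all genes 4.17% to 20.9%, 0.0127% to 11.8%, 0% to 8.55%, 0% to 2.47% and 0% were then called. The WT calls of Kcnip2, Kcnk1, Kcna3 and Kcnd1 were kept in all 10 other settings and all 18 left-out fits, that of Kcnn2 in 10 and 17, Kcnk2 in 9 and 18, Kcnc4 in 9 and 14, Kcnk3 in 9 and 13, Kcnj12 in 6 and 10 and Kcnn1 in 3 and 2. The KO against WT calls were tried in 9 other settings and 18 left-out fits. Kept ipsilaterally were those of Kcnn2 in 6 and 13, Kcnd1 in 6 and 12 and Kcnk2 in 6 and 11. Kcne1l and Kcnip3 were each called in 8 and 10, and Kcnip2 in 5 and 7. Fewest left-out fits kept Kcnk1 (6 and 6), Kcnc4 (5 and 6) and Kcna1 (4 and 4). The contralateral call of Kcnd3 was kept in 7 and 8. Depth limits members such as Kcna3, with 3 to 14 counts in the WT contralateral libraries. Replicates are single mice, 3 per group. The p-values of the main edgeR fit rest on a spread shared by the 4 groups, with 8 residual degrees of freedom. That fit does not use the pairing of the 2 libraries of a mouse.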
